A study of Mus musculus with 283 samples.

Results

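The replication-dependent histone genes were followed through cultures, tumours, lymph nodes and spleens of transplanted mouse tumour models. Members were the genes whose symbol belongs to the clustered families of H1 linker histones or H2A, H2B, H3 and H4 core histones and that had a probe set naming no other gene. This gave 18 genes of the 15224 measured: 5 H1 genes (H1f1, H1f2, H1f3, H1f5 and H1f6), 5 H2A genes (H2ac1, H2ac6, H2ac8, H2ac12 and H2ac15), 6 H2B genes (H2bc1, H2bc9, H2bc14, H2bc18, H2bc21 and H2bc22) and 2 H4 genes (H4c12 and H4c14). No H3 gene (0) had a probe set of its own. The array names 60 such genes, and the others lie on 39 probe sets that name several histone genes each. The choice used symbols and no measured value, except that H4c12 had 2 probe sets and the one with the higher mean was kept.

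Core histones form the spool around which DNA is wound, and H1 linker histones bind where DNA enters and leaves it. Cells copying their DNA need new histones in step with it, so the genes of these clusters are transcribed mainly in S phase. Most of their mRNAs end in a stem-loop instead of a poly(A) tail. The stem-loop binding protein SLBP attaches to it, and the mRNA is degraded when DNA synthesis stops. H1f5 is an H1 subtype of dividing cells, and H1f6, H2ac1 and H2bc1 are mainly known from the testis.

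Gene expression was measured on 283 exon arrays of total RNA, each from 1 culture or 1 animal's tissue, and values are log2 expression after robust multi-array averaging. The tumour-bearing mice were BALB/c females with 4T1 (mammary), CT26 (colon) or Renca (kidney) tumours, DBA/2J females with P815 (mast cell) and C57Bl6j males with TRAMPC1 or TRAMPC2 (prostate). C57Bl6j females carried B16F0 from ATCC or ECACC, B16F10 from ATCC or NCI (melanoma), EL4 (a T cell lymphoma), LL2 (lung), MC38 (colon), TC1 (lung) or PAN02 (pancreas). Tumours were subcutaneous, on the back, except that PAN02 tumours were in the pancreas and PAN02 has no nodes here. There were 77 tumours from 15 models, 72 draining nodes and 78 spleens of tumour-bearing mice, 20 nodes and 20 spleens of tumour-free mice, and 16 cultures with 1 array each. Groups held 5 arrays, except 8 tumours, 8 spleens and 7 nodes for MC38 and 4 tumours for PAN02. Hepa1-6 and ID8 had cultures only, and TC1 had none. Each of the 4 host kinds (BALB/c female, DBA/2J female, C57Bl6j female and C57Bl6j male) had its own 5 tumour-free mice. The sources used here do not state ages. The 4 B16 stocks were taken as 1 family and the 2 TRAMP-C lines as another, which gives 11 families. Arrays in a group are different animals, so their p-values measure the spread between animals of 1 transplanted line. All tumour-bearing arrays carry sample numbers up to 229, tumour-free arrays start at 232 and cultures at 272, so this number and tumour bearing or culture cannot be told apart. The labels do not say what the number stands for.

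Before the results, 13 arrays stood apart and are named here: 5 scored as the other organ, and 8 labelled node were low in B cell genes. The organ score used the 10 spleen genes and 10 node genes that best separated bearing spleens from bearing nodes in these data. The ranges of these bearing organs therefore lie apart by construction, while tumour-free arrays took no part in the choice. On this score, 3 tumour-free arrays labelled spleen lay within the range of the bearing nodes (-1.95 to -0.77). They were C57Bl6j female animals 1 and 3 and BALB/c animal 9, at -1.65, -1.32 and -0.79. The tumour-free arrays labelled node of C57Bl6j female animals 2 and 4 scored 3.10 and 3.02, within the range of the bearing spleens (0.86 to 3.91). The 8 nodes low in B cell genes had a mean of 4.27 to 6.72 for 4 genes, against 8.10 to 9.26 in the other 84 nodes. They were 4T1 animal 36, CT26 animals 28 and 29, Renca animals 21, 22 and 24, tumour-free DBA/2J animal 5 and tumour-free C57Bl6j female animal 5. In the 6 tumour-bearing ones, the correlation over genes with the mean of their own family's tumours was 0.967 to 0.984, against 0.824 to 0.956 in the other 66 bearing nodes. The main results on nodes and spleens are given with and without these arrays.

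Promoter stretches are shown because the families differ in the short motifs that precede their start. The 130 bases before the start are given 5′ to 3′ on the gene's strand, from RefSeq on GRCm38.p6, with motif letters in capitals on either strand. The motifs are the H1 box (AAACACA), the CCAAT box (CCAAT), the TATA box (TATAAA) and the octamer ATTTGCAT, which is known from H2B promoters. H1f5, H1f2 and H1f3 stand for the linker genes, H2bc14 and H2ac12 for the octamer or CCAAT pattern of core genes, and H4c12 for H4. They come from chr13:21780626-21780755 (minus strand, H1f5), chr13:23738677-23738806 (plus strand, H1f2), chr13:23554902-23555031 (plus strand, H1f3), chr13:21721914-21722043 (plus strand, H2bc14), chr13:22035644-22035773 (minus strand, H2ac12) and chr13:21750554-21750683 (minus strand, H4c12).
H1f5: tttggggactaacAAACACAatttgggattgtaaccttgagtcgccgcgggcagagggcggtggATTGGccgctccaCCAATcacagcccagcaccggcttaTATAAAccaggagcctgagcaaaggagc
H1f2: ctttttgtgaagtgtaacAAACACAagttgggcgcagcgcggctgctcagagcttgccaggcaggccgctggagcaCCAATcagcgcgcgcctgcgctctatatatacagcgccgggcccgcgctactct
H1f3: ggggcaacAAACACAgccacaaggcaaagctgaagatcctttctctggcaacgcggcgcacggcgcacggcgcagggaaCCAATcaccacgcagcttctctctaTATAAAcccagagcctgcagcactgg
H2bc14: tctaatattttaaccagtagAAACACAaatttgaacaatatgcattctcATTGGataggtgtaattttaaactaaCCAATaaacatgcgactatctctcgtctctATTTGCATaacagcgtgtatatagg
H2ac12: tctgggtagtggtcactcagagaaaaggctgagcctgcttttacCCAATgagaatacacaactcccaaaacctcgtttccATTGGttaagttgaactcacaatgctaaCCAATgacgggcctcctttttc
H4c12: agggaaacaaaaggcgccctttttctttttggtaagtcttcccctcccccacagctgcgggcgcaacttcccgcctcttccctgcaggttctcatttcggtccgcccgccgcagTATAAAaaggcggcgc

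RefSeq promoters were given for 16 of the 18 genes (none for H4c14 and H2bc21), and motifs were counted over 250 bases before the start on both strands. The H1 box was found in 7 of 16, among them 4 of the 5 H1 genes, against 6.25% of 32851 promoters. In H1f5 it began 117 bases before the start, with a CCAAT box at 53 and a TATA box at 28. The CCAAT box was in 15 of 16, against 33.8% of all promoters, and the exception was H4c12. The TATA box was in 9 of 16, against 12.4%. The octamer was in 7 of 16, in 4 of 5 H2A, 3 of 5 H2B and 0 of 5 H1 genes, against 1.6%. In H2bc14 it began 25 bases before the start, and in H2ac12 155 bases before it, outside the stretch shown. The H1 box, CCAAT box and TATA box stood together in 4 members (H1f5, H1f3, H2ac1 and H2bc1) and in 0.39% of all promoters. H2ac1 and H2bc1 lie head to head, and their windows overlap. Each motif match of H2bc1 is also a match of H2ac1, such as the H1 box at 61 and 226 bases before their starts. The same stretch is therefore counted for both genes in the counts above, which are not independent there. A match describes letters only, and no motif searched contains another.

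Most members were measured well above the array's low values, and a few were weak. Probe values of different genes are not calibrated against each other, so levels are compared within a gene only. H2ac12, a core H2A gene, had a lowest, median and highest log2 level of 10.46, 11.48 and 12.03 over the 77 tumours and 11.19, 12.20 and 12.69 over the 16 cultures. H2ac15, the H2A gene most like it, had 10.35, 11.52 and 12.12 in tumours and 11.18, 12.34 and 12.92 in cultures. H2ac12 and H2ac15 moved together (Pearson r = 0.987 over 283 arrays), and their difference had a median of 0.06 with a range of -0.34 to 0.57. H2A genes of these clusters are near copies, so the arrays may not separate these genes. H1f5 spanned 4.49, 7.40 and 9.18 in the tumours and 3.85, 9.48 and 10.64 in the cultures. H4c14, an H4 gene on chromosome 3, spanned 2.86, 5.10 and 7.63 in tumours and 4.97, 6.52 and 8.74 in cultures. H4c12, an H4 gene on chromosome 13, spanned 7.24, 8.92 and 10.05 in tumours and 9.44, 10.08 and 10.57 in cultures.

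The other members are given by their ranges. Among H2B genes, H2bc9 lay between 7.39 and 9.09 in tumours and between 8.14 and 9.74 in cultures. H2bc14 lay between 6.47 and 8.55 in tumours and between 7.88 and 9.14 in cultures. The ranges were 3.55 to 6.45 in tumours and 4.45 to 7.27 in cultures for H2bc21, and 4.69 to 6.56 in tumours and 5.79 to 6.41 in cultures for H2bc18. For H2A, the tumour range was 6.41 to 8.41 for H2ac6 and 5.81 to 7.83 for H2ac8. H1f2 ranged from 4.88 to 7.48 in tumours and from 5.97 to 8.38 in cultures. H1f1 exceeded 4.3, the value below which 25% of all array values lie, in 6 of 77 tumours and 5 of 16 cultures. H4c14 exceeded it in 57 of 77 tumours and 16 of 16 cultures, but in nodes only in 21 of 72 bearing and 6 of 20 tumour-free arrays, and in 49 of 78 bearing and 11 of 20 tumour-free spleens. Its values in nodes were thus mostly weak, and differences against a group under 4.3 are less sure. H1f3 (2.12 to 4.39 in tumours), H2bc1 (1.45 to 4.89) and H2bc22 (1.72 to 5.03) were also weak. The testis-type genes H1f6 and H2ac1 lay between 3.28 and 5.40 and between 4.04 and 6.61 in tumours.

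Tumours were compared with cultures of the same lines, which asks how histone expression differs between growth in the animal and in a dish. Most of the histone genes were lower in tumours. By limma's moderated test over 10 families, with the single culture array of each line subtracted from its tumour mean, 7 of 18 members were called lower (Benjamini-Hochberg adjusted p under 0.05 and a log2 difference of at least 1) and 0 higher. Of all genes tested, 11.3% were called lower and 13.3% in either direction. At the adjusted p alone 15 of 18 were lower, against 44.7% of all genes. The 15 include H1f3, which exceeded 4.3 in 1 of 77 tumours and 6 of 16 cultures, so it was tested only through the group where it was high and had to differ. The members' median difference was -0.96, against -0.26 for all genes. In tissue, fewer cells of a type and less RNA per cell cannot be told apart.

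H4c14 fell most. Its family-mean level was 5.05 in tumours and 6.94 in cultures, a difference of -1.89 ± 0.15 (SE, n = 10 families), with an adjusted p of 4.83e-07 by limma. It was lower in 10 of 10 families, with -2.67 in LL2 at one end and -0.91 in B16 at the other. Within B16, tumours and culture were close in F0 ATCC (5.10 and 5.14) and F10 ATCC (5.27 and 5.32). They were 5.68 and 6.44 in F0 ECACC and 4.49 and 7.27 in F10 NCI, so the B16 difference came mainly from F10 NCI. H4c12 averaged 8.81 in tumours and 10.12 in cultures (-1.31 ± 0.16, limma adjusted p = 1.31e-05) and was also lower in 10 of 10. The second H4c12 probe set, not used here, did not show this fall, and its value is given at the end. H2bc14 differed by -1.19 ± 0.18 (7.53 in tumours, 8.73 in cultures), H2bc21 by -1.18 ± 0.21 (4.99 and 6.17) and H1f2 by -1.13 ± 0.15 (6.36 and 7.49), with limma adjusted p-values of 9.55e-05, 0.000272 and 3.46e-05. H2bc1 differed by -1.11 ± 0.22 at weak levels (2.98 in tumours, 4.09 in cultures). H2ac12 (-0.97), H2ac15 (-0.96), H2ac6 (-0.95), H1f3 (-0.93), H2bc9 (-0.91), H1f1 (-0.90), H2ac8 (-0.71) and H2bc18 (-0.37) were below the fold threshold but past the adjusted p. H2bc22 (-0.44), H2ac1 (-0.31) and H1f6 (-0.11) passed neither, and H1f6 was lower in 4 families and higher in 6.

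**Figure D1:**
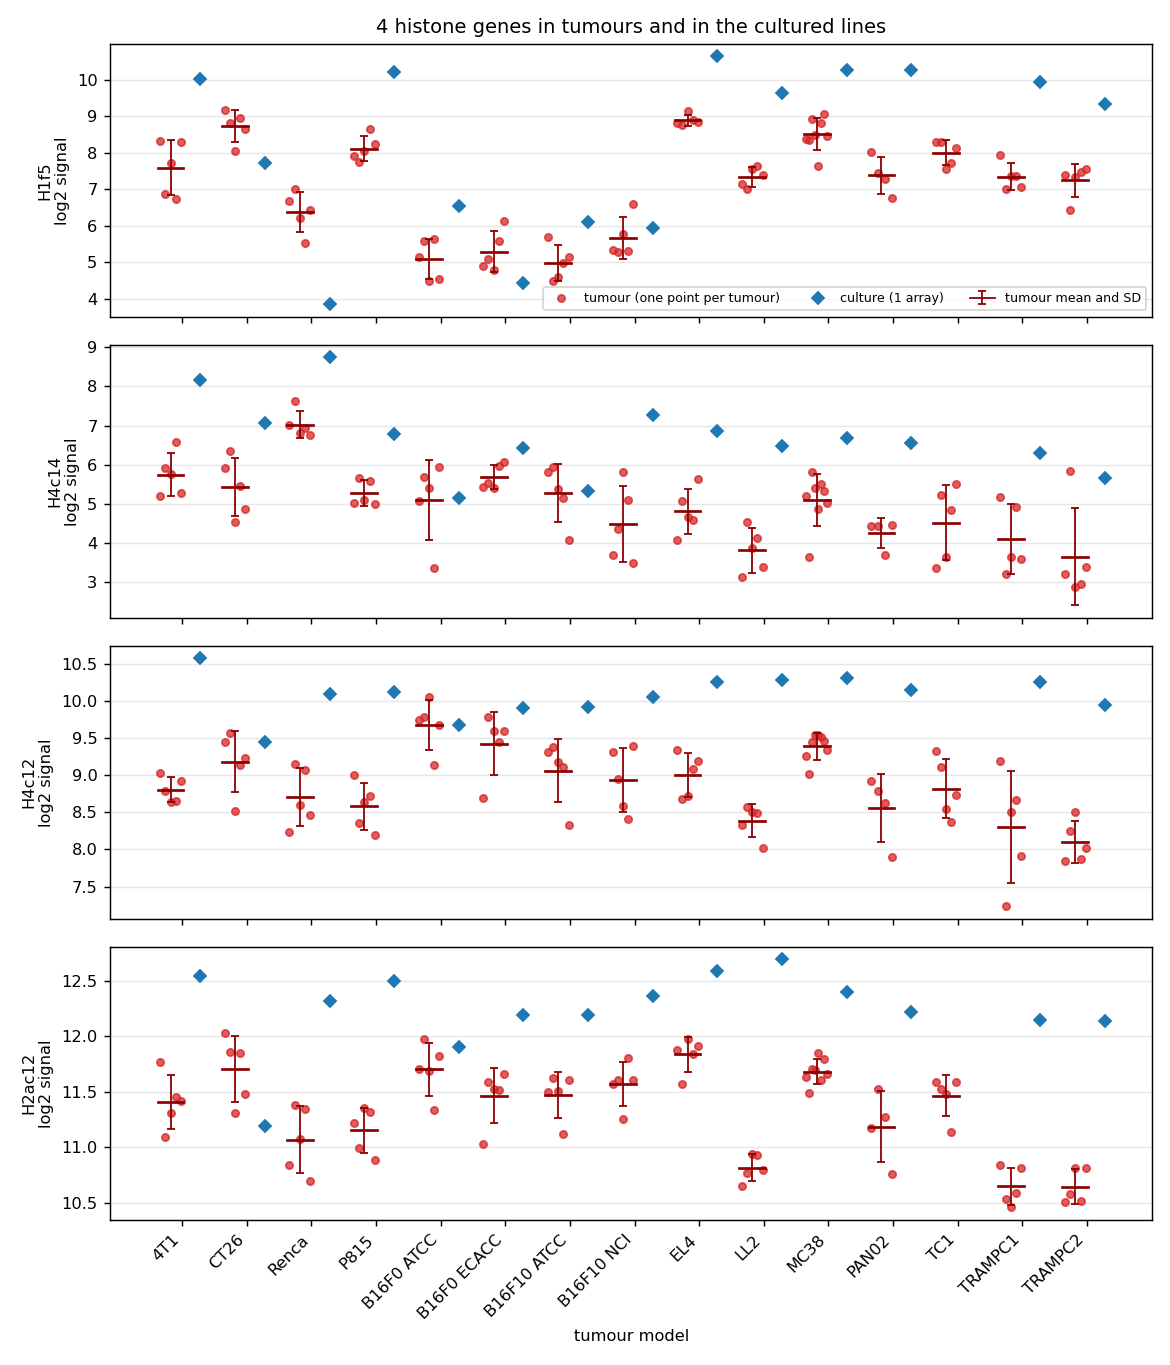
Log2 expression (RMA) of H1f5, H4c14, H4c12 and H2ac12 by model, with tumour arrays and their mean ± SD on the left of each model and its single culture array as a diamond on the right. H4c14 and H4c12 (by the probe set used) were lower in the tumours of each of the 10 families. H1f5 was higher in CT26, Renca and B16F0 ECACC tumours than in their cultures.

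H1f5 was not lower in every family. In cultures it was 10.64 in EL4, 10.28 in PAN02, 10.27 in MC38, 10.23 in P815, 10.02 in 4T1, 9.98 in ID8, 9.94 in TRAMPC1, 9.64 in LL2, 9.33 in TRAMPC2, 8.32 in Hepa1-6 and 7.73 in CT26. In the 4 B16 cultures it was 6.55 (F0 ATCC), 6.11 (F10 ATCC), 5.94 (F10 NCI) and 4.42 (F0 ECACC), and in Renca 3.85. The B16 and Renca lines were therefore the low ones, while their H2ac12 values, 11.90 to 12.36 in B16 and 12.31 in Renca, lay among the other cultures. Its tumour minus culture difference was lower in 8 families, at -2.90 in PAN02, -2.43 in 4T1, -2.34 in TRAMP-C, -2.30 in LL2, -2.11 in P815, -1.75 in EL4 and in MC38 and -0.50 in B16. It was higher in CT26 (1.01) and Renca (2.53). The Renca culture, a single array at 3.85, lay under 4.3, so the Renca difference is less sure. Within B16, F0 ECACC tumours averaged 5.29 against 4.42 in their culture, and the other stocks' tumours lay below their cultures. The mean difference was -1.26 ± 0.46 (7.55 in tumours, 8.80 in cultures; n = 10 families, limma adjusted p = 0.0363). Leaving out any 1 of 7 families, 4T1, EL4, LL2, MC38, P815, PAN02 or TRAMP-C, took the adjusted p to 0.0647 to 0.0853. The scaling mattered more widely: with array medians subtracted H1f5 was at -1.10 (limma adjusted p = 0.0616), and with quantile normalisation at -0.80 (0.168). With array medians subtracted H1f2 (-0.97) and H2bc1 (-0.96) also lost their call. Under quantile normalisation H4c12 (-0.85), H2bc21 (-0.81), H2bc14 (-0.44) and H1f2 (-0.43) lost it, while H4c14 (-1.32) and H2bc1 (-1.11) kept it.

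Genes of S phase and mitosis fell too, and smaller shares of the other histone-related lists were called lower. The median of all genes was -0.26. These lists were counted under the main scaling only. Of 18 S phase genes, 13 were called lower and 18 passed the adjusted p, with a median of -1.25: Gins1 (-2.02), Mcm3 (-1.68), Cdc6 (-1.51) and Mcm5 (-1.38), which all serve the start or the progress of DNA replication. Of 15 mitosis genes 13 were called lower (median -1.35), led by Cdc20 (-2.29) and Cdk1 (-2.03). Of 18 histone mRNA control genes 3 were called lower (median -0.77), Lsm10 (-1.48), Lsm1 (-1.42) and Casp8ap2 (-1.23), and Slbp (-0.98) fell by less than the threshold. Of 14 histone chaperones 4 were called lower: Asf1b (-1.30), Chaf1b (-1.28), Asf1a (-1.12) and Nasp (-1.09). Of 9 histone variants the centromere histone Cenpa (-1.34) and H2ax (-1.28) were called lower. Macrophage and fibroblast markers moved the other way. Macrophage genes were called higher in 5 of 5 (median 2.53), fibroblast genes in 3 of 4 (3.11) and T cell genes in 1 of 5 (0.61). By limma 0 of 7 neutrophil granule genes (median 0.00), 0 of 3 B cell genes, 0 of 6 plasma cell genes and 0 of 6 germinal centre genes were called, and 1 of 7 erythroid genes was called lower. Their part in the histone differences was not tested.

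**Figure D2:**
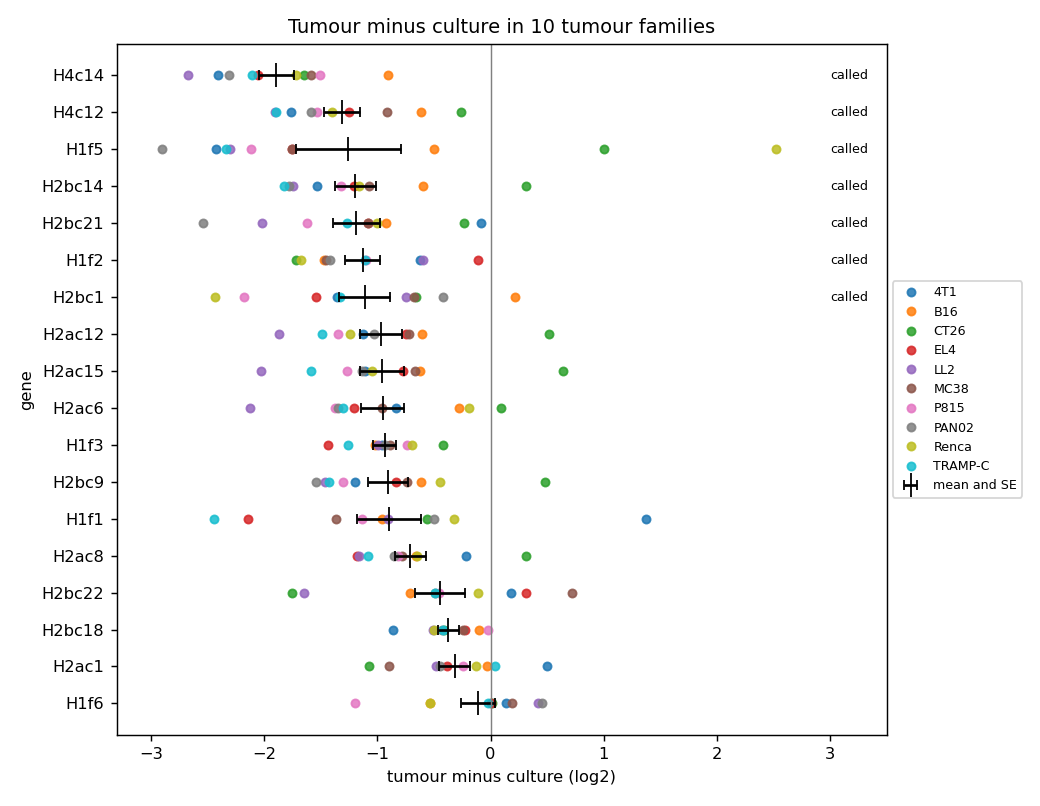
Log2 difference, tumour minus culture, of the 18 histone genes in each of 10 families (points), with the mean and its SE over families. Points for H4c14 and H4c12 (by the probe set used) all lie below 0, and those of H1f5 run from -2.90 to 2.53.

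Among the tumours themselves, the models differed. An F test in limma called 10 of 17 tested members (adjusted p under 0.05 and a range of model means of at least 1), against 52.8% of all genes, so the share was near the background. The range of model means was 3.91 for H1f5 and 3.38 for H4c14, against 1.19 for H2ac12 and 1.21 for H2ac15. In H1f1 it was 2.65, in H2bc21 1.89, in H4c12 1.58, in H2bc14 1.57, in H1f2 1.54 and in H2bc1 1.52. Among tumours, H1f1 exceeded 4.3 only in MC38, in 6 of 8. H1f1 was thus tested only through the group where it was high and had to differ, so its call among the 10 is not informative. Mean H1f5 over each model's tumours was 8.89 in EL4, 8.73 in CT26, 8.52 in MC38, 8.12 in P815, 8.00 in TC1, 7.60 in 4T1, 7.38 in PAN02, 7.35 in TRAMPC1, 7.34 in LL2, 7.24 in TRAMPC2 and 6.37 in Renca. It was 5.66 (F10 NCI), 5.29 (F0 ECACC), 5.08 (F0 ATCC) and 4.98 (F10 ATCC) in the B16 stocks. The SD within a model was 0.15 to 0.76, so neighbours in this order, such as PAN02, TRAMPC1, LL2 and TRAMPC2, were closer than their spread.

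Each family's tumours were then contrasted with the average of the remaining families, and 11 of 187 member tests were called, 7 higher and 4 lower. Over all genes and families 2.7% of tests were called higher and 2.01% lower, so the members' share was near the background. H1f5 accounted for 5 of them. In the 20 B16 tumours it had a lowest, median and highest value of 4.49, 5.22 and 6.60, and the mean was 5.25, against 7.82 over the other families. This difference of -2.57 ± 0.12 (limma adjusted p = 4.94e-30) was the only member called in B16, where 7.36% of all genes were called. In Renca tumours H1f5 was 5.54, 6.22, 6.43, 6.67 and 7.00 (-1.34 ± 0.21, limma adjusted p = 6.26e-07). H1f5 in EL4 tumours was 8.75, 8.81, 8.85, 8.90 and 9.14 (1.43 ± 0.21, limma adjusted p = 8.43e-08), and 6.91% of all genes were called there. The EL4 arrays all lay above every B16 and Renca array. In CT26 it was 8.04, 8.64, 8.83, 8.96 and 9.18 (1.25 ± 0.21), where 3.15% of genes were called. In MC38 its mean was 8.52 (1.02 ± 0.17), where 4.1% were called, and leaving out any 1 of 6 arrays took it to 0.94 to 0.998, under the fold threshold.

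H4c14 ordered the models differently. In Renca tumours it was 6.76, 6.81, 6.94, 7.00 and 7.63, with a mean of 7.03 against 4.79 in the other families (2.23, limma adjusted p = 1.07e-07), where 4.35% of all genes were called. Renca was thus low in H1f5 and high in H4c14, and its culture had the highest H4c14 of the 16 (8.74). In LL2 tumours H4c14 was 3.13, 3.37, 3.87, 4.14 and 4.53 (-1.31, limma adjusted p = 0.002; 3.27% of genes called), and in the 10 TRAMP-C tumours it spanned 2.86, 3.49 and 5.83 (-1.24, limma adjusted p = 3.00e-05; 3.67% called). The remaining calls were single genes of H1 and H2B. H1f1 in the 8 MC38 tumours spanned 3.79, 4.77 and 5.57, a mean of 4.67 against 2.72 in the other families. All 6 tumours above 4.3 were MC38 tumours, so H1f1 was tested here only through the group where it was high and had to differ. H1f2 in LL2 was 7.18, 7.23, 7.24, 7.42 and 7.48 (1.01, limma adjusted p = 7.33e-06; 0.97 to 0.995 without any 1 of 4 arrays), and H2bc21 in Renca averaged 5.97 against 4.83 (1.15, limma adjusted p = 8.39e-05). No member (0) was called in 4T1, P815, PAN02 or TC1, where 3.06%, 6.77%, 4.74% and 4.44% of all genes were called.

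Draining nodes of tumour-bearing mice were compared with nodes of tumour-free mice of the same strain and sex, 1 fit per organ, averaged over 10 families. Several families share 1 set of 5 tumour-free controls: B16, EL4, LL2, MC38 and TC1 (with PAN02 for spleens) share C57Bl6j females, and 4T1, CT26 and Renca share BALB/c females. Their effects carry the same control values and are given side by side, not as repeats. Over all arrays 3 of 15 members were called higher (0.386% of genes higher, 0.453% in either direction) and 7 passed the adjusted p alone (13.2% of all genes higher). H1f5 was 5.70, 7.00 and 8.93 (lowest, median, highest) in the 72 bearing nodes and 5.53, 5.98 and 6.74 in the 20 tumour-free nodes. The groups overlap, with the bearing median above the highest tumour-free array. Its effect was 1.23 ± 0.14 (7.17 in bearing nodes against 5.94, limma adjusted p = 2.91e-10). H2ac15 had 1.07 ± 0.10 (10.84 against 9.77) and H2ac12 1.01 ± 0.10 (10.76 against 9.75), with limma adjusted p-values of 2.48e-12 and 3.49e-12. The arrays may not separate these genes, so their calls, here and in the later counts, may be the same signal. Leaving out the tumour-free array labelled C57Bl6j female node 5 alone took H2ac15 to 0.93 and H2ac12 to 0.88, and quantile normalisation took them to 0.90 and 0.84, while H1f5 stayed called in both.

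Part of this rested on the nodes low in B cell genes. For H2ac15 and H2ac12 it was mainly the tumour-free C57Bl6j female node 5, without which alone they stood at 0.93 and 0.88. Without the 5 arrays against their organ label the same 3 genes were called, with 1.31 for H1f5, 1.26 for H2ac15 and 1.20 for H2ac12 (0.861% of genes called). Without the 8 nodes low in B cell genes only H1f5 was called (1.17 ± 0.15, 7.14 in bearing against 5.97 in tumour-free nodes, limma adjusted p = 1.46e-07), and H2ac15 (0.87) and H2ac12 (0.82) were below the fold threshold (0.165% of genes called). Without all 13, H1f5 (1.26 ± 0.19, 7.14 against 5.89, limma adjusted p = 4.53e-06) and H2ac15 (1.02 ± 0.13, limma adjusted p = 3.89e-08) were called and H2ac12 stood at 0.97. The share of all genes called was then 0.293%. This setting left 2 of the 5 tumour-free C57Bl6j female nodes, the controls of B16, EL4, LL2, MC38 and TC1. It also left 2 of the 5 Renca nodes.

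By family, 23 of 150 member tests were called higher and 0 lower over all arrays, where 1.29% of the tests of all genes were called higher. There were 30 without the 5 arrays against their organ label (1.76% of all tests), 13 without the 8 nodes low in B cell genes (0.339%) and 17 without all 13 (0.392%). Of these 17, 15 were also called over all arrays. H1f5 in CT26 nodes was 7.39, 8.19, 8.42, 8.83 and 8.93, against 5.65, 5.73, 5.79, 6.15 and 6.27 in tumour-free BALB/c nodes. The groups did not overlap, and the 2 highest were the arrays low in B cell genes. The difference was 2.43 over all arrays and 2.08 without them (limma adjusted p = 0.000137), and 2.52% of all genes were called over all arrays. H1f5 in EL4 nodes was 6.93, 7.05, 7.85, 8.09 and 8.29, against 5.57, 5.64, 5.90, 5.94 and 6.29 in tumour-free C57Bl6j female nodes. This difference was 1.77 over all arrays and 1.88 without the 13 (limma adjusted p = 0.000963), with 2.21% of genes called. In P815 nodes it was 7.40, 7.49, 7.87, 8.00 and 8.19, against 5.92, 5.93, 6.01, 6.33 and 6.74 in DBA/2J nodes. The difference was 1.60 over all arrays and 1.54 without the 13 (limma adjusted p = 0.00125), with 2.14% called. All 5 bearing arrays lay above their controls in EL4 and P815, and also in LL2 and Renca.

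In 4T1 nodes the H1f5 effect was 1.33 over all arrays (0.238% of genes called) and 1.25 without the 13 (called in both, but not without any 1 of 3 arrays, limma adjusted p up to 0.0744). The values without the 13 arrays were 1.39 in LL2, 1.24 in B16 and 1.17 in Renca, no longer called (limma adjusted p = 0.0626, 0.0947 and 0.237), against 1.28, 1.12 and 1.02 called over all arrays. These differences did not shrink, and 2 C57Bl6j female control nodes and 2 Renca nodes were left. Having fewer arrays and lacking these particular arrays cannot be told apart in the lost calls. Over all arrays 0.75% of genes were called in LL2 nodes, 0.445% in B16 and 0.401% in MC38, where 3, 2 and 2 members were called. In MC38 (0.96 over all arrays), TC1 (0.50) and TRAMP-C (0.32) H1f5 was not called, and without the 13 it was 1.08, 0.61 and 0.32, also not called. Without the 5 arrays alone it was called in MC38 (1.12, limma adjusted p = 0.0274). TC1 and TRAMP-C nodes had 0 called members over all arrays, against 0.156% and 0.00742% of genes, with 2 and 1 at an unadjusted p under 0.05 in limma. In TC1 nodes H2ac12 and H2ac15 (both 1.11) were called without the 5 arrays against their organ label (0.72% of genes called), and 0 without the 13. In Renca nodes, 3 of 5 arrays were low in B cell genes and H4c14 there was 6.93, 7.22 and 7.43, within the range of Renca tumours (6.76 to 7.63). H4c14 was called higher in Renca nodes over all arrays (1.32, 8.14% of genes called) and was -0.14 without the 13 (4.77 against 4.91). H4c12 and H2bc14 in Renca nodes went to 0.52 and 0.51 without the 13, against 1.02 and 1.05 over all arrays.

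The family effects in nodes differed by an F test over families in limma for H1f5 (from 0.32 in TRAMP-C to 2.43 in CT26, adjusted p = 3.70e-05), H2ac12, H2ac15 and H2bc9, 4 of 15 members against 20.1% of all genes. Without the 13 arrays 4 of 15 differed, against 4.65% of all genes. Among other genes, 8 of 15 mitosis genes were called higher over all arrays (median 1.01), Top2a (1.55), Mki67 (1.47), Cenpe (1.41) and Kif11 (1.30). Without the 13 arrays 7 of 15 were (median 0.91). By limma 0 of 18 S phase genes were called in either setting (median 0.57, and 0.54 without the 13), though 16 passed the adjusted p alone over all arrays, led by Prim1 (0.86) and Mcm6 (0.83). Of 6 germinal centre genes 2 were called in both. Without the 13 arrays the B cell genes' median was 0.54 and that of T cell genes -0.22, and their part was not tested.

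**Figure D3:**
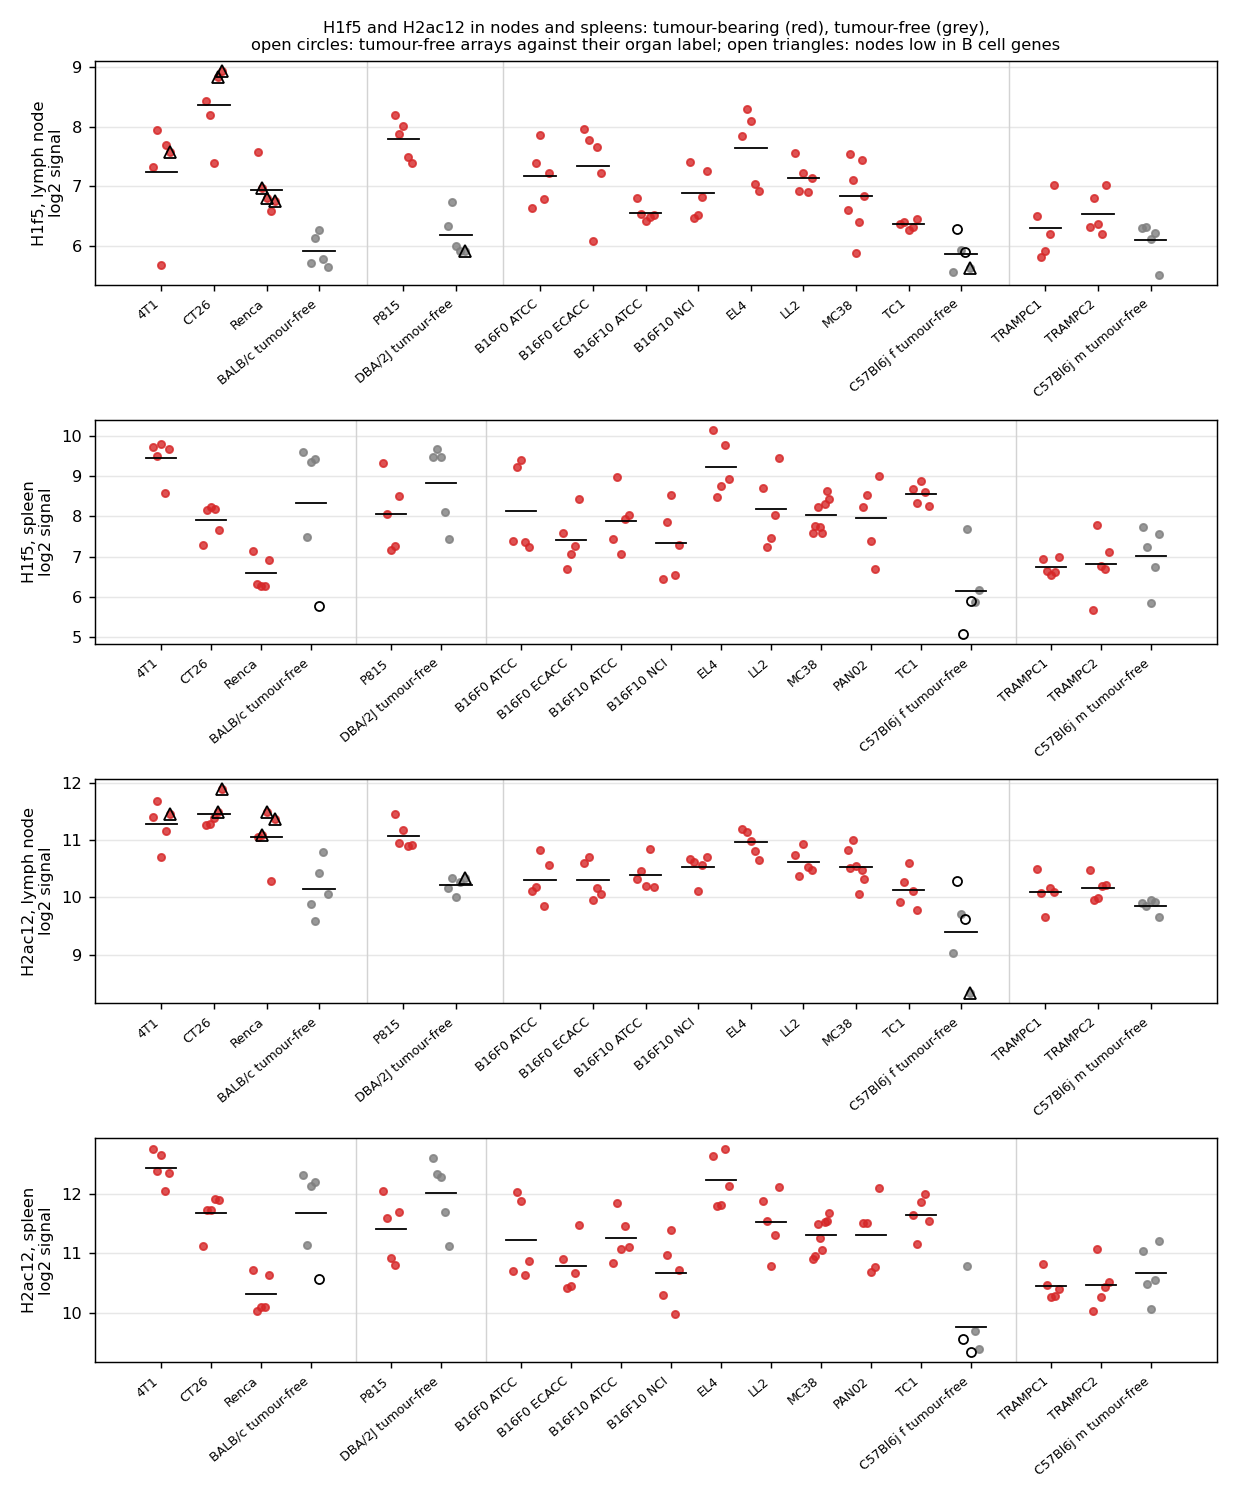
Log2 expression of H1f5 and H2ac12 in nodes and spleens by model, with tumour-bearing animals (red, left) and tumour-free animals of the same host (grey, right) and bars at the means. Open circles mark the 5 arrays against their organ label and open triangles the 8 nodes low in B cell genes, and the CT26, EL4, P815, LL2 and Renca nodes lie above their controls in H1f5.

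Spleens moved in both directions. No member (0 of 17) was called for the effect averaged over 11 families (0.231% of genes), 11 had an unadjusted p under 0.05 in limma, and 4 passed the adjusted p alone (4.13% of genes higher): H1f5 (0.97 ± 0.24, 8.04 in bearing against 7.07 in tumour-free spleens, adjusted p = 0.00685), H2ac12 (0.82), H2ac15 (0.82) and H2ac6 (0.49). Without the 5 arrays against their organ label, 0 passed either rule in limma (0.0224% of genes called) and 6 had an unadjusted p under 0.05. By family, 33 tests were called higher and 6 lower of 187 over all arrays, against 0.986% and 0.0983% of the tests of all genes. Without the 5 there were 16 higher and 8 lower, against 0.431% and 0.072%, with 22 called both times.

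EL4 spleens had the most called members, 11 of 17 over all arrays (3.45% of genes called higher) and 10 without the 5 arrays (2.8%). They include H1f1, which exceeded 4.3 in 24 of 78 bearing and 2 of 20 tumour-free spleens and so was tested mainly through bearing spleens. Their H1f5 values were 8.47, 8.76, 8.92, 9.78 and 10.14, against 5.08, 5.88, 5.90, 6.18 and 7.69 in tumour-free C57Bl6j female spleens, of which 5.08 and 5.90 were the 2 against their label. The groups did not overlap. The H1f5 difference was 3.07 ± 0.49 over all arrays and 2.63 ± 0.52 without the 5 (9.22 against 6.59, limma adjusted p = 0.00059). H2ac12 was 11.80, 11.81, 12.12, 12.63 and 12.75, against 9.35, 9.40, 9.57, 9.70 and 10.79, a difference of 2.46 (2.26 without the 5). H2ac15, H4c12 and H4c14 in EL4 spleens differed by 2.45, 2.29 and 2.27 over all arrays and by 2.18, 1.84 and 1.92 without the 5. The tumour-free C57Bl6j female mean of H4c14 was 3.68 over all arrays, under 4.3, so its difference is less sure. In TC1 spleens H1f5 lay between 8.25 and 8.88, above all 5 controls (2.40, and 1.96 without the 5, limma adjusted p = 0.045), where 6 members were called over all arrays (1.95% of genes higher) and 3 without (0.635%).

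In the other C57Bl6j female hosts fewer members were called once the 5 arrays were left out. This left 3 of the 5 tumour-free C57Bl6j female spleens. LL2 spleens had 6 called members over all arrays (1.86% of genes higher) and 2 without the 5 (0.284%). B16 (0.0596% higher), MC38 (1.09%) and PAN02 (1.6%) had 3, 3 and 4 over all arrays and 0, 0 and 1 without (0%, 0.00747% and 0.433% of genes higher). H1f5 there was 1.54, 1.89 and 1.82 over all arrays and 1.10, 1.45 and 1.38 without. In 4T1, CT26, P815 and TRAMP-C spleens 0 members were called by limma, with 6, 1, 4 and 0 at an unadjusted p under 0.05, against 0.626%, 0.171%, 0.00745% and 0.00745% of genes called. Without the 5 arrays 0 were called there too, with 1, 4, 5 and 0 at an unadjusted p under 0.05.

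Renca spleens went the other way. H1f5 was 6.27, 6.27, 6.32, 6.93 and 7.15, against 5.77, 7.49, 9.35, 9.44 and 9.61 in tumour-free BALB/c spleens, where 5.77 is animal 9, an array against its organ label. The difference was -1.75 ± 0.49 over all arrays (limma adjusted p = 0.0386) and -2.39 without the 5 (limma adjusted p = 0.00284), when every Renca array lay below every control. Over all arrays the calls of H1f5 and of H4c14 were lost without any 1 of 7 Renca or BALB/c arrays. H4c14 differed by -1.99 and -2.49, H4c12 by -1.63 and -2.33 and H2ac12 by -1.35 and -1.63 over all arrays and without the 5. In all, 6 members were called lower over all arrays (0.0895% of genes lower) and 8 without (0.493%), with H2bc14 (-1.46) and H1f2 (-1.21) added. CT26 and 4T1 mice, also BALB/c, shared these controls. The family effects differed for 12 of 17 members by the F test in limma, against 20% of all genes, and for 12 without the 5, against 18.7%. H1f5 spanned 4.81 between the Renca and EL4 effects.

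Genes of red cell precursors, which divide in the mouse spleen, moved with these effects. The median of 7 erythroid genes over all arrays was 3.39 in EL4, 2.97 in TC1, 2.68 in LL2, 2.34 in MC38, 2.24 in PAN02, 1.53 in B16, 1.33 in 4T1, 0.31 in CT26, -0.43 in P815, -0.89 in TRAMP-C and -1.05 in Renca. Without the 5 arrays it was 3.03 in EL4, 2.61 in TC1 and -1.89 in Renca. EL4 and TC1 spleens, which had the most members called higher without the 5 arrays (10 and 3), had the highest medians, and Renca spleens the lowest. TRAMP-C spleens came close to Renca in erythroid genes over all arrays (-0.89). Their histone members had a median of -0.14, against -0.84 in Renca. The part of these cells in the histone values was not tested. In the mean over families 5 of 7 erythroid genes were called higher, Hemgn (1.93), Slc4a1 (1.71), Alas2 (1.46) and Ermap (1.28), and 0 without the 5 arrays (median 0.88). Slc4a1, Alas2 and Ermap are also among the 10 spleen genes that singled out the 5 arrays, so leaving out those spleens lowers this erythroid effect by construction. Of 7 neutrophil granule genes 2 were called higher over all arrays (median 0.93) and 1 without the 5 (median 0.82), and 6 were higher at the adjusted p alone over all arrays. By limma 0 of 5 T cell genes were called in either setting (median -0.48 over all arrays and -0.26 without the 5), and 5 were lower at the adjusted p alone over all arrays. Over the 19 spleen groups the mean of the histone genes correlated at r = 0.81 with the neutrophil granule genes and -0.82 with the T cell genes, and the part of these cells was not tested either. The proliferation genes Birc5 (1.23) and Mki67 (1.07) were the called ones of 15 mitosis genes over all arrays.

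Tumour-free spleens were higher in histone genes than tumour-free nodes. Over all arrays 4 of 17 members were called higher (0.674% of genes higher, 1.26% in either direction) and 13 passed the adjusted p alone (7.47% of genes higher). H1f5 was 5.08, 7.52 and 9.67 in the 20 spleens and 5.53, 5.98 and 6.74 in the 20 nodes (means 7.58 and 6.02, difference 1.56 ± 0.19, limma adjusted p = 5.96e-12). The 2 organs overlapped, and the spleen median lay above the highest node. H4c12 differed by 1.40, H2ac15 by 1.16 and H2ac12 by 1.12. Without the 13 arrays 8 were called (1.19% of genes higher), with H1f5 at 1.85 and H4c12 at 1.72, and H4c14 (1.11), H1f2 (1.09), H2bc14 (1.08) and H1f1 added. H1f1 had means of 3.26 in spleens and 2.13 in nodes, both under 4.3, and the node mean of H4c14 was 3.83. Erythroid genes were called higher in 5 of 7 (median 2.01) and mitosis genes in 7 of 15 (median 0.90) over all arrays.

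Tumour-free spleens also differed by strain, with BALB/c and DBA/2J females both set against the same 5 C57Bl6j females. In BALB/c spleens 7 members were called higher over all arrays (0.641% of genes higher), and 8 without the 5 arrays (0.605%). H4c14 averaged 6.38 in BALB/c and 3.68 in C57Bl6j spleens (2.70, limma adjusted p = 0.00045, with the C57Bl6j mean under 4.3) and H1f5 8.33 and 6.15 (2.19, limma adjusted p = 0.0019, and 2.39 without the 5). In DBA/2J spleens 9 members were called higher over all arrays (2.01%) and 5 without the 5 arrays (1.03%), with H1f5 at 7.43, 8.11, 9.48, 9.48 and 9.67 (2.69, and 2.25 without the 5) and H2ac12 at 2.25 higher. The median difference of the 7 erythroid genes was 2.22 in BALB/c and 2.82 in DBA/2J over all arrays, and 2.48 and 2.46 without the 5. In nodes 0 members were called by limma over all arrays or without the 13, between BALB/c and C57Bl6j (0.371% of genes over all arrays) and between DBA/2J and C57Bl6j (2.54%), with 5 and 2 at an unadjusted p under 0.05. Without the 13, 2 tumour-free C57Bl6j female nodes were left. Without the 5 arrays alone, H2ac12 (1.12), H2ac15 (1.13) and H4c14 (1.81) were called higher in BALB/c nodes (0.624% of genes called), and H2ac12 (1.20) and H2ac15 (1.21) in DBA/2J nodes (2.93%). Between C57Bl6j males and females 0 were called in nodes (0.23% of genes) or spleens (0.0224%), with 2 and 3 at an unadjusted p under 0.05.

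Tumours were set against the organs of the same mice. Against nodes, 0 of 17 members were called over all arrays (6.78% of genes), with 13 at an unadjusted p under 0.05 in limma and 12 higher at the adjusted p alone (46.9% of all genes higher). Without the 8 nodes low in B cell genes H4c14 was called higher (8.87% of genes called), and also without all 13 (8.88%). It was then 5.07 in tumours and 4.02 in nodes without all 13 arrays (1.06 ± 0.15, limma adjusted p = 3.28e-11), with the node mean under 4.3. Beside this, 4 of 4 B cell genes (median -3.93) and 5 of 5 T cell genes (-2.81) were called lower and 11 of 15 mitosis genes higher (1.07) in tumours than in nodes over all arrays, and their part was not tested. Against spleens 0 of 17 were called (8.46% of genes), with 6 at an unadjusted p under 0.05 in limma. At the adjusted p alone H1f1 (-0.87), H1f5 (-0.45), H2ac6 (-0.26) and H2bc22 (-0.22) were lower and H1f6 (0.18) higher in tumours, against 20.8% of all genes lower and 48.7% higher. Without the 13 arrays 0 were also called (8.47% of genes), with 6 at an unadjusted p under 0.05. In tumours against spleens, 5 of 7 erythroid genes (median -2.95), 4 of 4 B cell genes (-4.35), 5 of 5 T cell genes (-2.15) and 4 of 7 neutrophil granule genes (-1.25) were called lower and 4 of 4 fibroblast genes higher (2.23), and their part was not tested. The effect of tumour bearing in nodes minus that in spleens was called for 0 of 17 members (0.487% of genes, 0 at an unadjusted p under 0.05 in limma), at 0.35 ± 0.28 for H1f5. Without the 13 arrays it was also 0 (0.0732% of genes, 3 at an unadjusted p under 0.05). The replicate block of the animal, with a consensus correlation of 0.0128 for the effects in both organs, left the members' calls at 0 of 17 there.

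Across the 68 groups of 1 kind, model and tumour status, most core histone genes followed one another. Pearson's r of a member with the mean of the other 17 was 0.97 for H2bc14, 0.95 for H2bc9 and H4c12, 0.93 for H2ac12 and H2ac15, 0.91 for H2ac8 and 0.88 for H2ac6. It was 0.82 for H2bc18, 0.79 for H1f3, 0.76 for H1f2, 0.75 for H4c14, 0.67 for H2bc21, 0.65 for H2bc1 and 0.53 for H1f1. H1f5 (0.47), H2bc22 (0.34), H2ac1 (0.34) and H1f6 (0.28) were the least alike. Groups share a tissue kind and a line, so these are descriptions. The genes most like the members' mean over the 68 groups were Mcm7 (r = 0.955), Incenp (0.950), Mcm5 (0.947), Slbp (0.939) and Clspn (0.938), 5 of the top 10.

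The mean of the 18 histone genes and that of 18 S phase genes correlated at r = 0.92 over 68 groups. Within kinds it was 0.96 over 19 spleen groups, 0.90 over 18 node groups, 0.82 over 15 tumour groups and 0.40 over 16 cultures. With the erythroid genes it was 0.94 in spleens, -0.13 in nodes, 0.54 in tumours and 0.62 in cultures. H1f5 followed the S phase mean in spleens (0.95) and nodes (0.78) but not in tumours (-0.03). The lowest, median and highest array mean of the 18 histone genes was 5.85, 6.37 and 6.86 in tumours and 6.70, 7.15 and 7.57 in cultures. It was 5.45, 5.85 and 6.51 in bearing nodes and 5.21, 5.52 and 5.99 in tumour-free nodes, and 5.55, 6.36 and 7.44 in bearing spleens and 5.30, 6.15 and 7.31 in tumour-free spleens. For the S phase genes it was 5.84, 7.08 and 7.63 in tumours and 7.41, 8.16 and 8.49 in cultures. Tumours thus overlapped with the spleens in the histone mean.

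**Figure D4:**
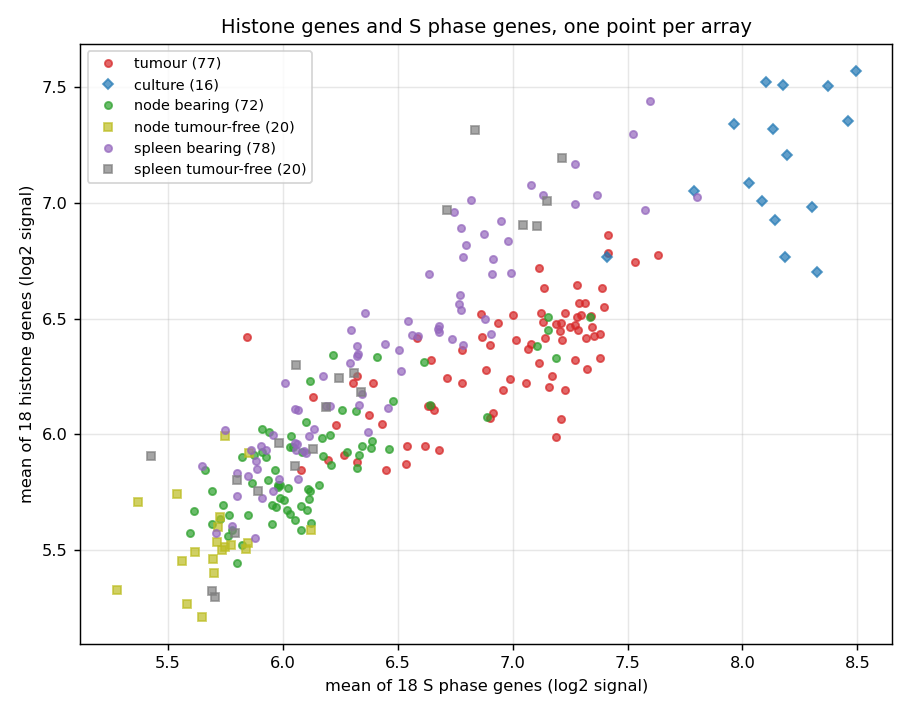
Mean log2 expression of the 18 histone genes (vertical) against that of 18 S phase genes (horizontal), 1 point per array, coloured by kind of sample. Cultures lie at the upper right (6.70 to 7.57 for the histone genes), and tumours reach 7.63 for the S phase genes with histone means of at most 6.86.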

How the data were processed

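The file deposited by the authors holds log2 values for 17831 probe sets on 283 arrays, made with RMA (robust multi-array averaging) per the submitters' processing notes. RMA's version, the arrays normalised together and the build were not stated in the sources read. Of the probe sets, 15620 named 1 gene symbol by the platform's annotation, 1370 named several and 841 none, and the last 2 kinds did not enter the tests of the 18 genes. The 39 probe sets naming several histone genes are given at the end. Array medians ran from 5.19 to 5.66, and no pair of arrays was identical (0 pairs). The number of arrays limits the precision.

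Symbols were matched to RefSeq. A gene entered a comparison if it exceeded 4.3 in at least 4 of its arrays, so 15 members were tested in nodes, 17 in spleens and among tumours and 18 against cultures. A member that passed only through a group where it was high could be tested only because of that group. Fits used limma 3.58.1 (lmFit, eBayes) in R 4.3.3, over all genes, with Benjamini-Hochberg adjustment and two-sided tests. A gene was called at an adjusted p under 0.05 with an absolute log2 difference of at least 1. Errors after ± are standard errors, except where marked SD. The comparison of tumours with cultures was made over 10 families, because each line had 1 culture array. Organs were compared with tumour-free organs of the same strain and sex. Motifs and summaries used Python 3.11.15 with pandas 2.3.3 and numpy 2.4.6, and figures matplotlib 3.10.9. The fits were tested on simulated data.

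The histone genes, the other gene lists and the rules were chosen with earlier results of these data known. Described in full were H1f5, H4c14, H4c12, H2ac12 and H2ac15 and, in each comparison, up to 5 called members at either end, with all others given by range or value, and at most 4 genes per other list, those with the largest difference. Animals gave several tissues, so fits across tissues were also run with a replicate block for the animal. The alternatives were other scalings and filters, each array or family left out, and, chosen after seeing the data, leaving out the 5 arrays against their organ label, the 8 nodes low in B cell genes, or all 13. Organ scores were the mean of 10 spleen genes minus that of 10 node genes, and B cell content the mean of 4 B cell genes. The organ genes were those that best separated bearing spleens from bearing nodes in these data.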

Additional observations from a re-analysis of the deposited data

Results flagged for a closer look

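Among 260 pairs of marker gene and group of 4 to 10 arrays, 19 held 1 array whose gap to the others was large for the group's range, by Dixon's test; chance gives about 1 in 20 groups. H1f5 was 5.70 in the 4T1 node of animal 34 (the others 7.33 to 7.94), 8.59 in the 4T1 spleen of animal 35 (the others up to 9.79), 5.53 in the tumour-free C57Bl6j male node of animal 5 (6.12 to 6.33) and 6.43 in the TRAMPC2 tumour of animal 32 (7.34 to 7.57). H4c14 was 3.63 in the MC38 tumour of animal 12 (4.88 to 5.81), 3.68 in the PAN02 tumour of animal 4 (4.43 to 4.46) and 7.63 in the Renca tumour of animal 21 (6.76 to 7.00). In TRAMPC2 animal 32, H4c14 was high in both the tumour, 5.83 (2.86 to 3.39), and the spleen, 5.11 (3.05 to 3.64). H4c12 was 8.33 in the B16F10 ATCC tumour of animal 9 (9.10 to 9.38), 6.88 in the Renca spleen of animal 21 (7.51 to 7.68), 8.21 in the tumour-free array labelled C57Bl6j female node of animal 2 (6.81 to 7.21), 1 of the 5 against their organ label, and 6.90 in the C57Bl6j male spleen of animal 3 (8.26 to 8.60). H2ac12 was 11.03 in the B16F0 ECACC tumour of animal 1 (11.51 to 11.66), 11.12 in the B16F10 ATCC tumour of animal 8 (11.49 to 11.62) and 11.14 in the TC1 tumour of animal 23 (11.48 to 11.59). It was 10.10 in the B16F10 NCI node of animal 3 (10.56 to 10.71), 11.12 in the CT26 spleen of animal 25 (11.72 to 11.91) and 10.79 in the tumour-free C57Bl6j female spleen of animal 2 (9.35 to 9.70).

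Over all arrays, the effect of tumour bearing differed between families for 4 of 15 members in nodes by the F test in limma. Of all genes 20.1% differed there, so the node share was near the background. Without the nodes low in B cell genes and the arrays against their organ label, 4 of 15 also differed, against 4.65% of all genes. In spleens 12 of 17 members differed over all arrays, against 20% of all genes. In nodes the span from the lowest to the highest family effect was 2.11 for H1f5 (adjusted p = 3.70e-05), 1.29 for H2ac12 (0.00553), 1.34 for H2ac15 (0.00263) and 0.80 for H2bc9 (0.0179). In spleens it was 4.81 for H1f5 (6.51e-07), 3.81 for H2ac12 (2.43e-11), 3.77 for H2ac15 (2.08e-10), 3.92 for H4c12 (1.40e-06) and 4.27 for H4c14 (0.000226). It was 2.53 for H1f2, 2.52 for H1f1, 1.78 for H2ac6, 2.34 for H2ac8, 2.89 for H2bc14, 1.11 for H2bc18 and 2.18 for H2bc9, with adjusted p-values from 4.73e-08 to 0.0123. Renca had the lowest spleen effect (P815 for H1f1) and EL4 the highest.

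Of the 39 probe sets that name several histone genes, 24 were called lower in tumours than in cultures by limma. Many of these probe sets share genes, so they are not independent results. Of all 16060 probe sets tested, 13.4% were called in either direction. The second H4c12 probe set, not used above, averaged 8.52 in EL4 tumours and 6.12 in the other families, a difference of 2.40.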

How the results depend on the processing

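The fit was repeated under other settings for 123 results, and 2 values changed sign: H4c14 in Renca nodes was -0.14, not called, without the 8 nodes low in B cell genes and without those and the 5 arrays against their organ label. Without the 8 nodes the calls in nodes by family fell to 13 (23 over all arrays, 30 without the 5), those of the node effect to 1 (3), and H4c14 became the 1 call of tumours against nodes (also 1 without all 13 arrays; 0 over all). Quantile normalisation gave 12 and 1 for the first 2 of these. Leaving out the 5 arrays against their organ label, or all 13, gave 24 calls in spleens by family (39 over all arrays), and 7 or 8 of tumour-free spleens against nodes (4). Tumour against culture, 7 over all arrays, gave 4 with array medians subtracted, with 380 of all genes higher and 928 lower, and 2 with quantile normalisation, with 358 higher and 67 lower, so that the split of all genes changes direction with the scaling. The median of all genes was then -0.11 and -0.02 and that of the members -0.80 and -0.58. Leaving out 1 array or family at a time gave 5 to 11 calls (11 without CT26) of tumour against culture, 1 to 3 for the node effect (1 without the tumour-free C57Bl6j female node 5) and 0 to 1 for the spleen effect (1, H1f5, without the BALB/c spleen 7, 8 or 10, C57Bl6j female spleen 2 or PAN02 spleen 5). The causes were not tested. With the animal as a replicate block no member's call changed in the fits across tissues (0 of 17 in the node minus spleen effect and tumour against nodes or spleens, 4 for tumour-free spleens against nodes), and the block's consensus correlation was 0.009 to 0.0128. Signal over background limits H1f1, H1f3, H2bc1 and H2bc22, and H4c14 and H1f6 in nodes.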

Other observations

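The probe sets that name several histone genes give the only values for H3. Of 11 such H3 probe sets, 10 were called lower in tumours than in cultures by limma, with a median of -1.56, and of 11 H4 probe sets 9 were. Each H4 probe set names 13 genes, and the H3 probe sets name 7 to 12 each. Probe sets of a class thus share genes, so these counts are not of independent results. Of 6 H2A probe sets 1 was called lower and of 9 H2B probe sets 2. Among all 16060 probe sets tested, 13.4% were called in that comparison. In tumour-free spleens against tumour-free nodes, 25 of the 39 were called higher, against 1.41% of all probe sets called. In nodes of tumour-bearing against tumour-free mice 6 were higher (0.513% of all probe sets called), and in spleens 1 (0.283%).

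The 2 probe sets of H4c12 disagreed. The one used above was -1.31 in tumours minus cultures, and the other was 0.11 (limma adjusted p = 0.105).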
